A study of Homo sapiens with 6 samples.

Results

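The genes examined here encode the neurofilament proteins and other parts of the neuronal cytoskeleton. They were followed in the human colon cancer line COLO-320DM, sorted into cells with and without CD44. CD44 is a cell surface receptor for hyaluronan by which cancer stem cells of the colon are often enriched. All probe sets to which the platform annotation gave one of 10 gene symbols as their single gene were taken, without selection by level. The symbols were NEFL, NEFM, NEFH, INA, PRPH, NES, MAP2, MAPT, TUBB3 and STMN2. They brought 23 of the 54613 probe sets that were no controls, and 10 of 19775 genes. The 6 Affymetrix arrays held total RNA from 3 samples of CD44-positive and 3 samples of CD44-negative COLO-320DM cells, numbered 01, 02 and 03 in each group. All were cells of a single line in culture that had received no treatment. No label states separate cultures for the replicates, so the p-values cover the spread between these 6 samples alone, and part of it may be technical.

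Neurofilaments are intermediate filaments that fill the axon and set its calibre. They are built from the light, medium and heavy subunits (NEFL, NEFM and NEFH) together with alpha-internexin (INA) or peripherin (PRPH), and the light subunit forms the core to which the heavier subunits are added. Nestin (NES) is an intermediate filament protein of neural progenitors. MAP2 binds microtubules in dendrites and tau (MAPT) binds them in axons, TUBB3 is the beta-tubulin used as a marker of young neurons, and stathmin-2 (STMN2) binds free tubulin in growth cones. These proteins are also found in neuroendocrine and other tumours outside the nervous system.

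The promoters of the 3 intermediate filament genes INA, PRPH and NES are shown because INA was a gene whose 2 groups did not overlap, while PRPH and NES are family members whose groups did overlap. Each stretch of 300 bases runs from 250 bases before to 50 bases after the gene's start in RefSeq, build GRCh38.p14. Capitals mark TATAA, the core of the TATA box, and GGGCGG, the GC box, read on both strands. Matches may share bases with one another.
INA, chr10:103276888-103277187, plus strand: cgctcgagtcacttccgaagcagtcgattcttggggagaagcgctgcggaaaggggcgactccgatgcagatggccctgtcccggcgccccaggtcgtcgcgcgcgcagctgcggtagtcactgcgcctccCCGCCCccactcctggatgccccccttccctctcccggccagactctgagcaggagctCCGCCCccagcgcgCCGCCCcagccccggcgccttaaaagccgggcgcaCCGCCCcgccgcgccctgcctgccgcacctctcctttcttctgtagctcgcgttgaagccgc
PRPH, chr12:49294897-49295196, plus strand: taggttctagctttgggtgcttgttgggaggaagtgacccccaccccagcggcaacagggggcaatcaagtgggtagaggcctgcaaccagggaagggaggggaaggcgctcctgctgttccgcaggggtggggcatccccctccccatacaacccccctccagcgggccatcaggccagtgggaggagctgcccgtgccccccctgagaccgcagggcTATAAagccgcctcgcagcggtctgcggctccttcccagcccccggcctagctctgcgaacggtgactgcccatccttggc
NES, chr1:156677358-156677657, minus strand: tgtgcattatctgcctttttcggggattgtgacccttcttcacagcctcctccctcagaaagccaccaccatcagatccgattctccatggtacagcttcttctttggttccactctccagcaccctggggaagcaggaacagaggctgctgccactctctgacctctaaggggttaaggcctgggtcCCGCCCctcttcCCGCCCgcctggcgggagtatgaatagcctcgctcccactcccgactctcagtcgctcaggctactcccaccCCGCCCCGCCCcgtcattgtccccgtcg

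INA had 4 GC box matches and no TATAA, NES had 4 GC box matches and no TATAA, and PRPH had 1 TATAA and no GC box match. Among all 35116 promoters of the same length, 45.0% held GGGCGG and 20.4% held TATAA. The share of G and C bases was 71.3% in INA, 67% in PRPH and 60.3% in NES. A match describes these letters alone. Entries were found for 5 of the 10 genes.

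The sort marker did not overlap between the groups. CD44 stood at 7.86, 8.12 and 7.11 in the CD44-positive arrays, against 5.41, 5.29 and 4.99 in the CD44-negative arrays (log2 intensity, arrays 01 to 03), a 5.54-fold difference, with an adjusted p of 0.106 without the array number as a block and of 0.00176 with it (limma). Array medians ranged from 44.9 to 46.5 in intensity. Of the markers of colon epithelium, 6 of 8 lay above the dim limit that was used for testing, 5.12 on the log2 scale. CDX2, a transcription factor of intestinal epithelium, averaged 11.61 ± 0.09 and 11.69 ± 0.20 in CD44-positive and CD44-negative cells (SD, n = 3 each), while EPCAM and CDH1, 2 defining epithelial surface genes, were dim in both groups. EPCAM averaged 4.40 ± 0.29 and 4.87 ± 0.12 in CD44-positive and CD44-negative cells, without overlap. KRT20, a keratin of intestinal epithelium, averaged 6.97 ± 0.28 and 6.34 ± 0.25 in CD44-positive and CD44-negative cells, also without overlap but in the other direction. Of 5 neuron markers 3 lay above the limit. Among them SNAP25, a synaptic vesicle fusion protein, averaged 10.16 ± 0.16 and 10.26 ± 0.32 in CD44-positive and CD44-negative cells. Of 6 neuroendocrine markers with a probe set, SYP, NCAM1 and ENO2 lay above the limit and CHGA, CHGB and INSM1 below it.

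Each gene was represented by its probe set with the highest mean, and genes whose mean lay under the 30th percentile were set aside as dim. Of the 10 genes, 6 lay above this limit, NEFL, INA, PRPH, NES, MAPT and TUBB3. The other 4, NEFM, NEFH, MAP2 and STMN2, were dim and were not tested. NEFL and INA were the genes that had no overlap between the groups, with higher values in the CD44-positive cells, PRPH stood lower in 3 of 3 same-numbered pairs, and NES, MAPT and TUBB3 differed by less than 0.10 on the log2 scale. None of the 6 passed limma's test over 13842 genes at an adjusted p of 0.05. Of all genes 0% were called without and 0.0578% with the array number as a block. The set was chosen by gene family, with NEFL known from this same comparison to have one of the smallest unadjusted p-values. The differences below therefore describe the arrays and are not independent support for a difference.

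**Figure D1:**
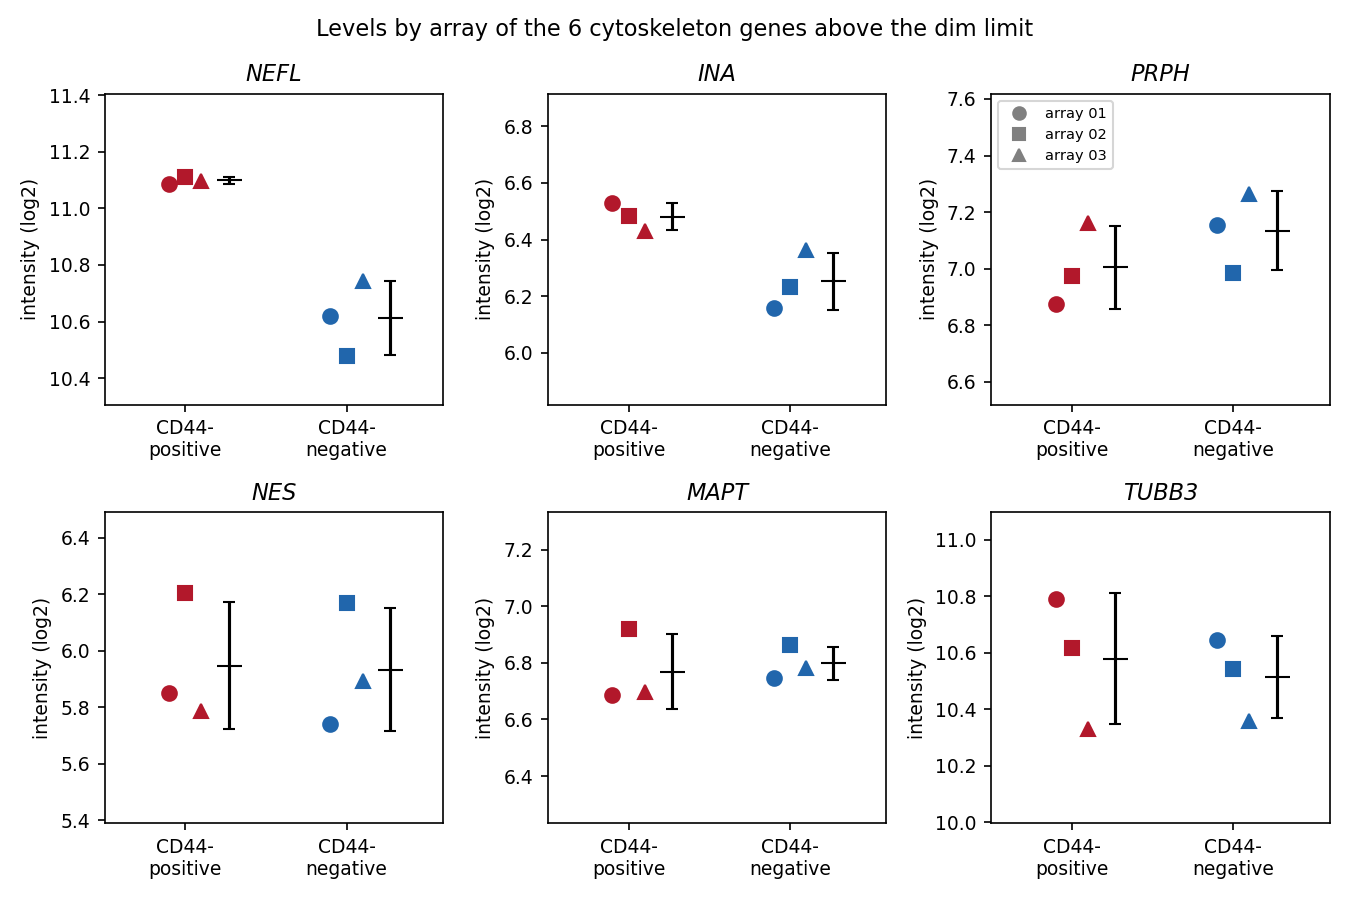
Log2 intensity of the 6 genes above the dim limit on each of the 6 arrays. CD44-positive arrays are red and CD44-negative arrays blue, the marker shape gives the array number, the black bar is the mean with its SD, and every panel spans the same range of log2 units. In NEFL and INA all 3 CD44-positive points lie above all 3 CD44-negative points, and in NES and TUBB3 the arrays of one number lie at similar heights in both groups.

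The light subunit NEFL stood at 11.09, 11.11 and 11.10 in the CD44-positive arrays, against 10.62, 10.48 and 10.74 in the CD44-negative arrays (log2 intensity of the probe set 221805_at, arrays 01 to 03). The CD44-positive arrays lay within a narrow band (SD 0.012), above every CD44-negative array (SD 0.13). The difference was 0.49 ± 0.09 (limma's SE), with a 95% interval from 0.27 to 0.70, or 1.40-fold. All 3 pairs had the same sign, at 0.47, 0.63 and 0.36. The adjusted p over all genes was 1.00 without the block and 0.124 with it. With the block and without pair 03 the difference was 0.55 with an adjusted p of 0.0215 (limma), and over all 26 alternatives the adjusted p ranged from 0.00189 to 1.00.

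NEFL was also read by 2 further probe sets. On 221916_at it stood at 10.07, 9.87 and 9.97 in the CD44-positive arrays, against 9.71, 9.29 and 9.80 in the CD44-negative arrays, again without overlap, a difference of 0.37. On 221801_x_at, whose suffix marks possible cross-hybridisation, it stood at 7.37, 7.01 and 7.14 in the CD44-positive arrays, against 7.06, 6.77 and 7.20 in the CD44-negative arrays. On that probe set the groups overlapped and pair 03 had the opposite sign, with a difference of means of 0.16. All 3 probe sets of NEFL thus had a higher mean in the CD44-positive cells, by amounts from 0.16 to 0.49.

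Alpha-internexin, INA, which can take the place of a neurofilament subunit in the filament, stood at 6.53, 6.48 and 6.43 in the CD44-positive arrays, against 6.16, 6.23 and 6.36 in the CD44-negative arrays. The groups did not overlap, but CD44-positive array 03 and CD44-negative array 03 were only 0.070 apart. The difference was 0.23 ± 0.09 (SE, 95% interval 0.02 to 0.44), or 1.17-fold, with pair values of 0.37, 0.25 and 0.07. By limma, adjusted p values of 1.00 (no block) and 0.563 (block) were obtained. INA rests on 1 probe set, with the suffix for transcripts shared between genes or isoforms.

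Of the 6 tested genes, 2 had no overlap between the groups with the CD44-positive arrays higher, where 2.82% of all genes did, and none with them lower, where 2.6% did. At an unadjusted p under 0.05 there were the same 2 genes, against 1.97% of all genes (limma). All 3 pairs were positive in NEFL and INA, as in 13.7% of all genes, and all 3 were negative in PRPH, as in 14.8%. These genes were chosen with this comparison in view, so nothing is read from these counts. Over the 6 genes 4 stood higher and 2 lower, where 48.9% of all genes stood higher, with a median difference of 0.04, beside a median of -0.0025 over all 13842 genes.

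Peripherin, PRPH, the intermediate filament of peripheral neurons, stood at 6.88, 6.97 and 7.16 in the CD44-positive arrays, against 7.15, 6.99 and 7.26 in the CD44-negative arrays. The groups overlapped, and the arrays numbered 03 were the highest of each group. The difference was -0.13 ± 0.11 (SE, 95% interval -0.39 to 0.13), with pair values of -0.28, -0.01 and -0.10.

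Nestin, NES, stood at 5.85, 6.20 and 5.79 in the CD44-positive arrays, against 5.74, 6.17 and 5.89 in the CD44-negative arrays. The arrays numbered 02 were the highest in both groups. The difference was 0.01 ± 0.15 (SE), with a 95% interval from -0.33 to 0.36. Its other probe set, 229346_at, lay just above the dim limit with a mean of 5.14 and differed by -0.05, so the sign of the nestin difference depended on the probe set.

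The medium subunit NEFM, whose gene neighbours NEFL in the RefSeq assembly, had 2 dim probe sets. On 223902_at, just under the limit with a mean of 4.92, it stood at 5.11, 5.04 and 4.95 in the CD44-positive arrays, against 4.65, 4.93 and 4.86 in the CD44-negative arrays. These values did not overlap and differed by 0.23, but with both group means dim the size of the difference is approximate. On 205113_at the difference was -0.05 and the groups overlapped. The heavy subunit NEFH averaged 3.73 ± 0.04 in CD44-positive and 3.70 ± 0.10 in CD44-negative cells (log2, SD, n = 3 each), and its second probe set averaged 2.99 ± 0.21 in CD44-positive and 2.77 ± 0.11 in CD44-negative cells. Of the 3 neurofilament subunit genes, NEFL was thus the one with probe sets above the dim limit.

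**Figure D2:**
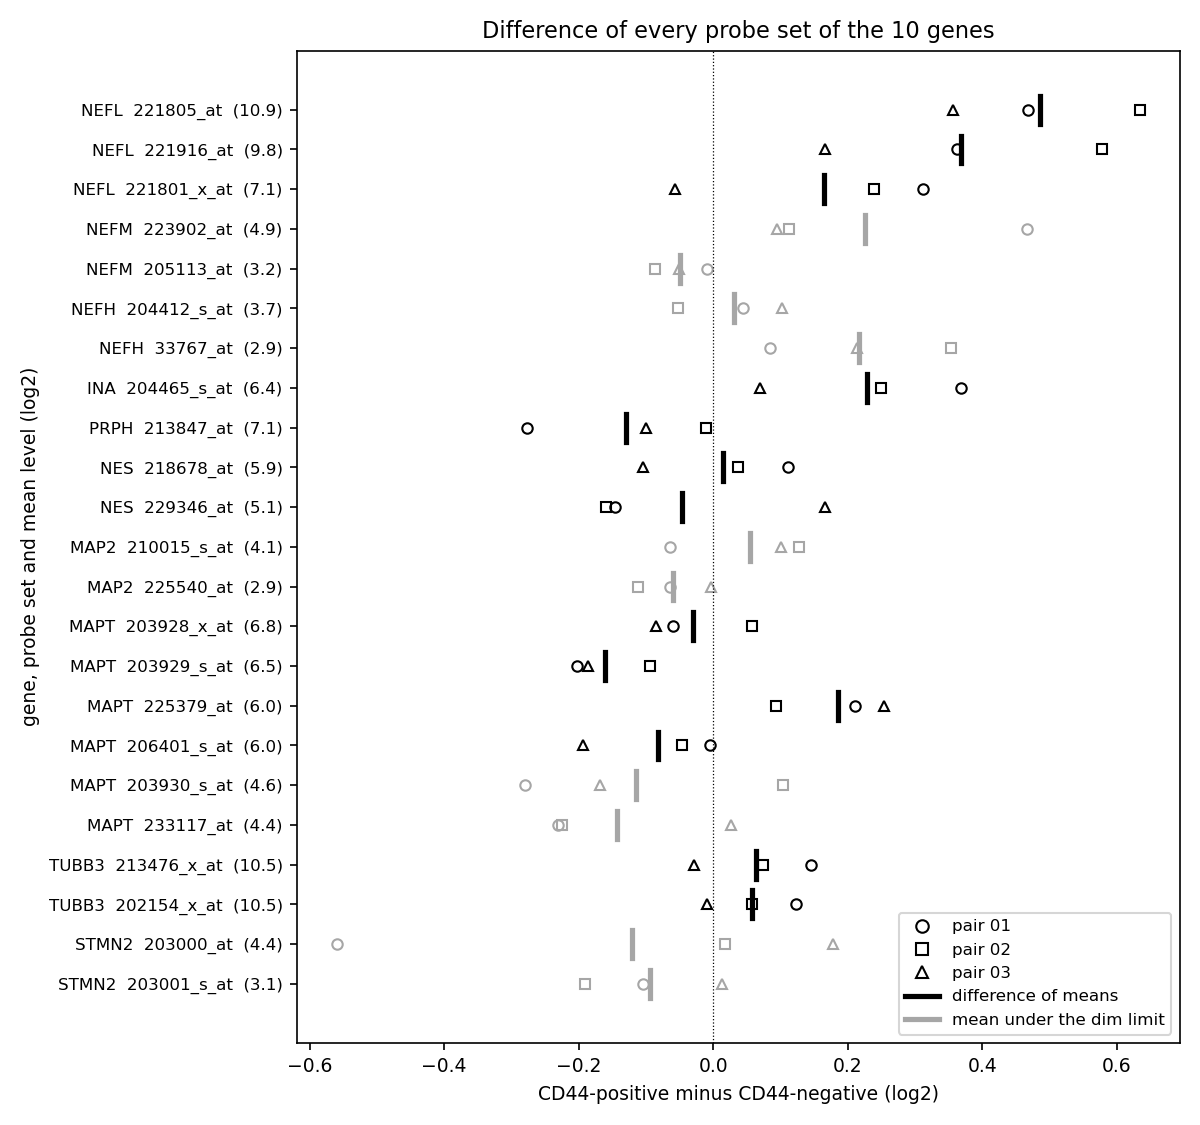
Difference between CD44-positive and CD44-negative arrays in log2 units for all 23 probe sets of the 10 genes, with the mean level of each probe set in brackets. Open points are the 3 same-numbered pairs, thick lines the difference of means, and grey marks the 10 probe sets under the dim limit. The 3 probe sets of NEFL lie to the right of 0 and those of MAPT lie on both sides of it.

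TUBB3, the neuronal beta-tubulin, stood at 10.79, 10.62 and 10.33 in the CD44-positive arrays, against 10.65, 10.54 and 10.36 in the CD44-negative arrays (213476_x_at). The arrays numbered 03 were the lowest in both groups and the groups overlapped. The difference was 0.06 ± 0.14 (SE, 95% interval -0.25 to 0.38). The second probe set differed by 0.06 as well. Both carry the cross-hybridisation suffix, and tubulin genes are close in sequence, so the level of TUBB3 may hold signal of other tubulins.

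Tau, MAPT, had 6 probe sets, 4 of them above the limit, which did not go the same way. The main probe set, 203928_x_at, stood at 6.69, 6.92 and 6.70 in the CD44-positive arrays, against 6.75, 6.86 and 6.78 in the CD44-negative arrays, a difference of -0.03 ± 0.10 (SE, 95% interval -0.25 to 0.20). On 225379_at MAPT differed by 0.19, positive in all 3 pairs, at 0.21, 0.09 and 0.25. On 203929_s_at it differed by -0.16, negative in all 3 pairs, at -0.20, -0.09 and -0.19. On 206401_s_at the difference was -0.08, and on the dim 203930_s_at and 233117_at it was -0.11 and -0.14. In all 6 the groups overlapped, and none of the 4 above the limit passed the test over 31403 probe sets, where 0.00318% were called without the block and 0.0764% with it. The main probe set carries the cross-hybridisation suffix, and of the 4 above the limit only 225379_at has no suffix. Whether these probe sets read different tau transcripts or other genes was not tested.

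MAP2 and STMN2 were dim on all their probe sets. MAP2 averaged 4.10 ± 0.03 in CD44-positive and 4.05 ± 0.11 in CD44-negative cells. STMN2 averaged 4.31 ± 0.37 in CD44-positive and 4.43 ± 0.02 in CD44-negative cells, with CD44-positive array 01, at 3.89, below all the others (log2, SD, n = 3 each). Their second probe sets differed by -0.06 in MAP2 and by -0.09 in STMN2, with overlap. Of the 10 dim probe sets of the set, 1 had no overlap between the groups, that of NEFM, where 8.16% of all probe sets under the limit had none. The highest value of any array on these probe sets was 5.11.

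Of the 13 probe sets above the dim limit, 8 had a higher and 5 a lower CD44-positive mean, with a median difference of 0.06. Groups did not overlap in 3 of the 13, 221805_at and 221916_at of NEFL and that of INA, where 5.67% of all probe sets tested had no overlap in either direction.

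The size of these differences can be set beside how far the arrays of different numbers lay apart. Same-numbered arrays deviated together from their group means over all tested genes, with correlations of 0.465, 0.689 and 0.626. In 4 of the 6 genes the means of the 3 array numbers spanned more than the difference between the sorts. They spanned 0.39 in NES, 0.37 in TUBB3, 0.23 in PRPH and 0.18 in MAPT. In NEFL and INA they spanned 0.13 and 0.05, beside sort differences of 0.49 and 0.23. The span exceeded the sort difference in 88.6% of all genes. In NEFL and INA the smaller span largely restates that their groups did not overlap, and nothing is read from it.

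**Figure D3:**
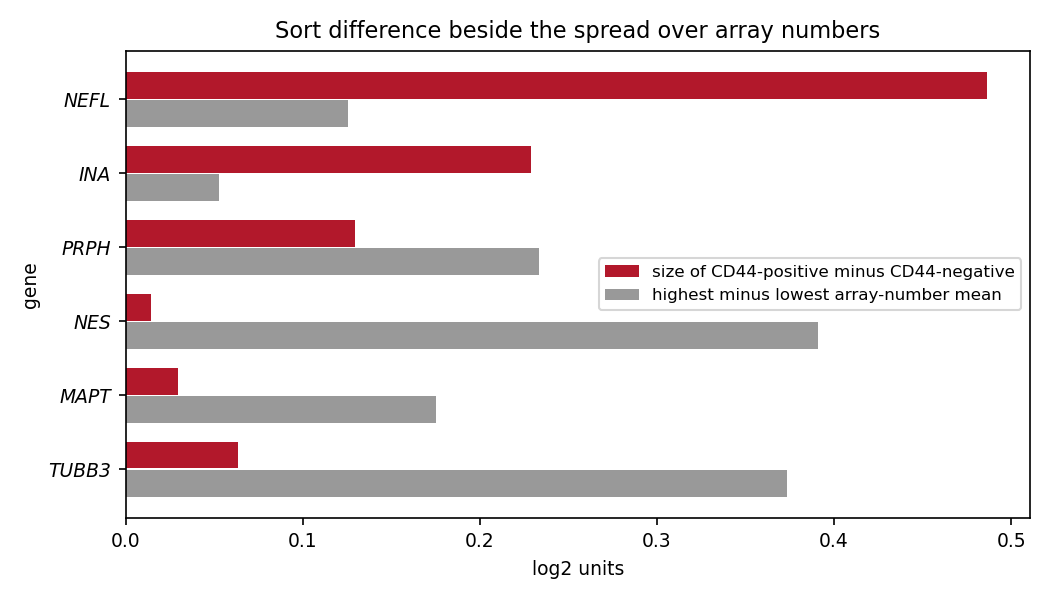
Size of the difference between CD44-positive and CD44-negative arrays (red) beside the highest minus the lowest of the 3 array-number means (grey), both in log2 units, for the 6 genes above the dim limit. The red bar is the longer one in NEFL and INA and the shorter one in PRPH, NES, MAPT and TUBB3.

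The genes whose centred values over the 6 arrays lay nearest to those of NEFL were GSDME, ISG15 and ANXA2, at root mean square distances of 0.061, 0.066 and 0.085 on the log2 scale, where NEFL itself lay 0.25 from its own mean. GSDME encodes a gasdermin that forms membrane pores, ISG15 an interferon-induced ubiquitin-like protein and ANXA2 a membrane-binding annexin. GSDME stood at 5.85, 5.85 and 5.68 in the CD44-positive arrays, against 5.30, 5.16 and 5.49 in the CD44-negative arrays. ISG15 stood at 7.97, 7.93 and 7.93 in the CD44-positive arrays, against 7.49, 7.26 and 7.73 in the CD44-negative arrays. In ANXA2 the difference was 0.45. GSDME, ISG15 and ANXA2 were picked because their values lay nearest to those of NEFL. Their small distances and higher CD44-positive values therefore follow from the choice, and nothing is read from them.

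Of 65 further cytoskeleton genes in 5 lists 60 were tested, of which the CD44-positive mean was the higher in 35 and the lower in 25, with a median difference of 0.02. None passed limma's test over all genes, with or without the block. The groups did not overlap in 6 of the 60, 3 in each direction, where 5.43% of all genes had no overlap.

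Among the other intermediate filament genes 4 of 7 stood higher, with a median of 0.01. Synemin, SYNM, which links filaments of other types, differed most on the high side, at 6.23, 6.28 and 6.05 in the CD44-positive arrays, against 5.42, 6.01 and 5.77 in the CD44-negative arrays. The groups did not overlap, and the difference was 0.45 ± 0.15 (SE, adjusted p = 1.00, limma). Desmin, DES, the muscle filament, stood at 5.69, 5.73 and 5.69 in the CD44-positive arrays, against 6.02, 5.81 and 5.98 in the CD44-negative arrays, a difference of -0.24 without overlap. The signs of the differences were thus mixed within the family.

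Of 11 tubulins tested 9 stood higher, with a median of 0.04. TUBB2A differed by 0.32 and the gamma-tubulin TUBG2 by -0.17, and in both the groups overlapped. Of 15 microtubule-binding genes 6 stood higher, with a median of -0.03. STMN3, a stathmin related to STMN2, stood at 6.81, 7.08 and 6.47 in the CD44-positive arrays, against 6.06, 6.30 and 5.99 in the CD44-negative arrays. The groups did not overlap, and the difference was 0.67 ± 0.16 (SE), or 1.59-fold, with an adjusted p of 1.00 without and 0.0526 with the block (limma). DPYSL3, a collapsin response protein of growing axons, stood at 8.36, 8.33 and 8.14 in the CD44-positive arrays, against 8.57, 8.52 and 8.77 in the CD44-negative arrays, a difference of -0.34 without overlap.

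Of 7 axon growth genes 5 stood higher, with a median of 0.02. CAP2, an actin-regulating protein, differed by 0.71 without overlap, with CD44-negative array 02 at 5.24 and the other CD44-negative arrays at 6.31 and 6.16. MARCKS, an actin-binding kinase substrate, differed by -0.09. GAP43, the growth-associated protein of axons, was singled out after its values were seen, because the array number outweighed the sort. Its number means spanned 1.97, beside a sort difference of 0.60 with overlap. The span exceeded the sort difference in 88.6% of all genes, so this trait is not particular to GAP43. It stood at 6.76, 7.44 and 5.84 in the CD44-positive arrays, against 5.59, 7.49 and 5.15 in the CD44-negative arrays, so the arrays numbered 02 were highest and those numbered 03 lowest in both groups. Of 20 linkers, motors and kinases 11 stood higher, with a median of 0.0010. Dystonin, DST, which links filaments to other parts of the cytoskeleton, differed by 0.26. CDK5R1, the activator of a kinase that phosphorylates neurofilaments and tau, differed by -0.22, with the groups not overlapping.

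**Figure D4:**
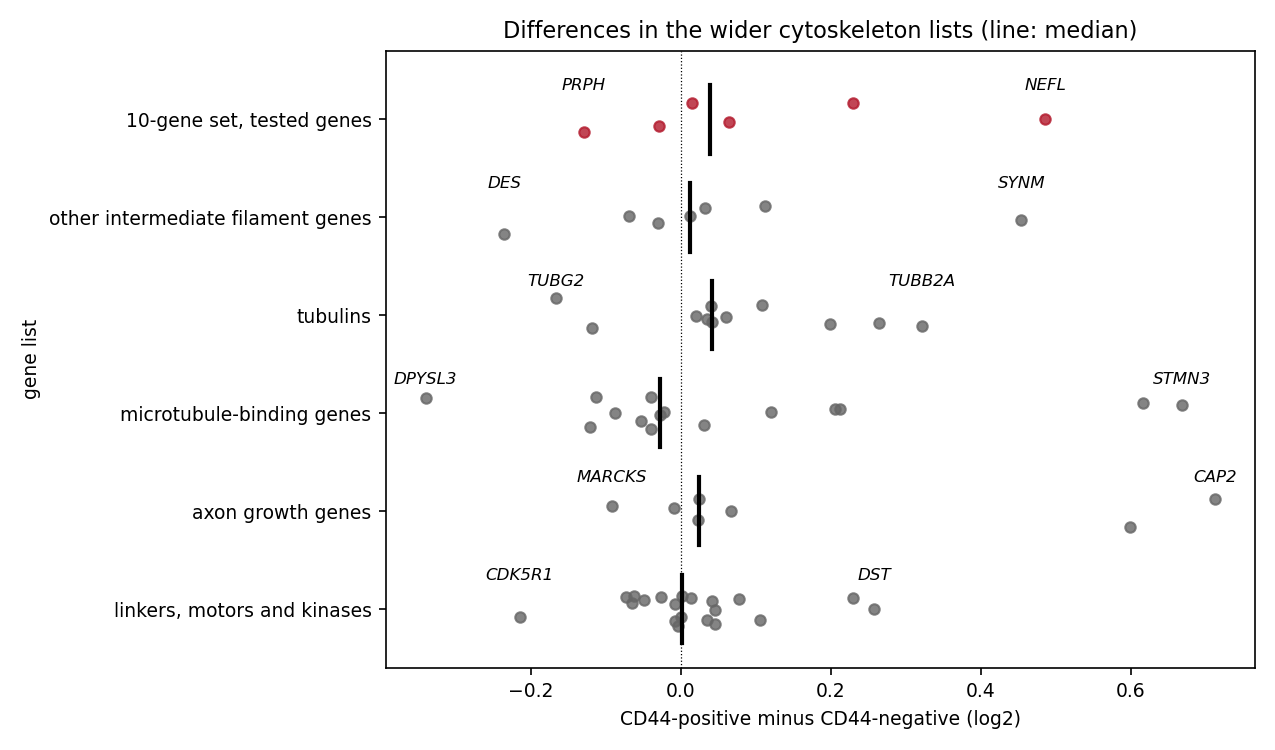
Difference between CD44-positive and CD44-negative arrays in log2 units for the 6 tested genes of the set (red) and the 60 tested genes of the 5 further cytoskeleton lists (grey). Each point is a gene, black lines are the medians, the vertical position within a list is only for legibility, and the highest and lowest gene of each list is named. All 6 medians lie between -0.03 and 0.04.

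Markers of other cell types were read beside these values. The sums are of linear intensities, so the brightest gene of a list weighs most. That gene was SNAP25 for neurons, COL3A1 for fibroblasts and CDX2 for colon epithelium, and each made up most of its sum. These sums are thus not levels of a whole list. The summed intensity of the 5 neuron markers ranged from 1199 to 1451 in the CD44-positive and from 1178 to 1708 in the CD44-negative arrays, and that of the 3 glial markers with a probe set from 154 to 169 in the CD44-positive and from 142 to 166 in the CD44-negative arrays. For the 6 fibroblast markers it ranged from 1423 to 3599 in the CD44-positive and from 1095 to 2234 in the CD44-negative arrays. Of the 5 fibroblast markers above the limit 2 stood higher, COL3A1 by 0.78 with overlap and COL1A2 by 0.31 without. The other 3 stood lower, COL1A1 by -0.23 without overlap, and PDGFRB by -0.13 and DCN by -0.04 with overlap. LUM, a proteoglycan of connective tissue, was dim on average, at 4.55 ± 0.95 in CD44-positive and 2.53 ± 0.23 in CD44-negative cells (log2, SD, n = 3 each). It stood higher by 2.02 without overlap, more than any of the other fibroblast markers. Its pair values were 3.27, 1.39 and 1.39, and CD44-positive array 01, at 5.63, lay above the limit. The 8 markers of colon epithelium summed to 4470 to 4977 in the CD44-positive and 4512 to 5398 in the CD44-negative arrays, and the 6 neuroendocrine markers to 179 to 265 in the CD44-positive and 160 to 238 in the CD44-negative arrays. The 3 neuroendocrine markers above the limit stood higher, SYP by 0.17 without overlap, NCAM1 by 0.08 and ENO2 by 0.49, the last 2 with overlap. Of the dim ones CHGB differed by 0.17, CHGA by -0.02 and INSM1 by -0.07, all with overlap. ENO2 lay above the limit in the arrays numbered 02 alone, at 6.58 for the CD44-positive sample, against 6.36 for the CD44-negative one, and its number means spanned 2.07. The part of these markers in the NEFL and INA values was not tested. In bulk samples, fewer cells that express a gene and less RNA per cell cannot be told apart.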

How the data were processed

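The deposited values are linear intensity values to which the authors had applied RMA, as recorded in the submitters' processing notes. RMA's version and a genome build are not given in the sources used here. RMA makes arrays alike and can compress differences near background. The log2 of each value was taken without a pseudocount. Of 54675 probe sets 62 were controls. The platform annotation named 1 gene for 41091 of the others. The test was limma's (version 3.58.1 in R 4.3.3, functions lmFit and eBayes), over 13842 genes, two-sided with Benjamini-Hochberg adjustment. Tables and figures were made with pandas 2.3.3 and matplotlib 3.10.9.

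The 10 genes, the further lists, the tests and the rule for named genes were chosen with earlier results of these data known. That rule took all 10 genes, CD44, the highest and lowest difference of each further list and the 3 profiles nearest to the tested gene with the largest difference. The cell type markers were also listed then. Protein sequences were not used here, so the planned protein features were not computed. The array numbers were taken as pairs from the data, since every same-numbered correlation exceeded 0.1. Pairs of other numbers lay between -0.496 and -0.107. Since each group was centred on its own mean, positive same-numbered correlations force the others below 0 on average. The negative values are thus no separate support for the pairing. Values with this replicate block are printed beside counts of calls and for CD44, NEFL, INA and STMN3. The SEs and intervals of the 6 tested genes, and the SEs of SYNM and STMN3, are from the fit without the block. On simulated data for 13842 genes and 3 arrays a group, changes of 0.5, 1 and 2 (log2) were recovered in 29.9%, 88.1% and 97.0% of genes without the block, and in 0%, 71.6% and 93.9% with it, the simulated arrays having no pairs. On the real arrays the median SE was 0.110 without the block and 0.075 with it. The simulated rates therefore do not show what the block gains or costs in these data. The number of arrays limits the precision of every value.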

Additional observations from a re-analysis of the deposited data

How the results depend on the processing

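The number of the 10 genes past the threshold was 0 as planned and with the replicate block, and it stayed 0 in 23 of 26 alternatives. It was 1, NEFL each time, with the block and a variance trend with robust moderation, with the block and array weights, and without replicate 3 under the block. There NEFL differed by 0.49, 0.55 and 0.55, with adjusted p values of 0.00189, 0.0300 and 0.0215 (limma). Over its 26 alternatives NEFL differed by 0.34 to 0.55, with adjusted p values from 0.00189 to 1.00 (limma). INA differed by 0.16 to 0.31 in 22, never past the threshold. It was not tested with a dim limit at the 50th percentile, where it was dim. Nor was it tested on suffix-free probe sets, since it has none. PRPH stayed between -0.21 and -0.06. Leaving out single arrays or pairs gave NEFL 0.41 to 0.55 and the count of the 10 genes 0 to 1. Of the probe sets of these genes 0 passed as planned, with 2 exceptions of 1 each, the block joined to the variance trend or to array weights. Of the further cytoskeleton genes 0 passed as planned. The count was 2 with the block and a variance trend, 2 with the block and array weights, and 1 each with the block and median centring, a dim limit at the 50th percentile or only probe sets without a suffix. With a pair left out it was 0 to 3. STMN3 was among the genes called in each of these settings except without replicate 1, where none was. It was joined by DCLK1 with the variance trend and with array weights, by CAP2 and DCLK1 without replicate 3 and by GAP43 without replicate 2. In DCLK1 the difference as planned was 0.62 with overlap, beside array-number means that spanned 0.87. With the block alone its adjusted p was 0.144 (limma). Over all genes 0 passed as planned (273 at an unadjusted p under 0.05), 8 with the replicate block, 2 with no filter on dim genes, 1 with only suffix-free probe sets and 1 with array weights. With the block joined to another choice it was 78 (variance trend), 43 (array weights), 19 (suffix-free probe sets), 18 (median centring), 16 (50th percentile), 6 (mean of probe sets), 5 (no dim filter) and 4 (quantile normalization). Leaving out single arrays gave 0 to 1, and with the block it was 10 without replicate 1, 63 without replicate 2 and 127 without replicate 3.

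Small differences turned sign. NES was -0.016 with the mean of probe sets, also with the block, and -0.114 to 0.13 with arrays or pairs left out, -0.034 of them without replicate 1 under the block. MAPT was 0.19 on suffix-free probe sets, also with the block, 0.055 with array weights and 0.0081 with array weights and the block, and -0.11 to 0.011 with arrays or pairs left out. TUBB3 was -0.042 to 0.19 with arrays or pairs left out. The cause was not tested. All alternatives that join the block to a choice other than the variance trend or leaving out a pair were added after the data were seen. The replicate block alone changed no call among the 10 genes.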
